A study of Mus musculus with 8 samples.

Results

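The 31 genes described here are Trp53, which encodes the transcription factor p53, together with genes that p53 is known to activate, the kinases that sense DNA damage, and genes of DNA repair. They were picked out by symbol, and all 31 were found among the 16418 genes of the deposited normalized expression table. RNA-seq of poly(A) RNA was done on naive CD4 T cells sorted from mouse spleen and lymph node by surface markers that included CD3 and CD4, absence of CD25, and CD44 low or negative. The KO group is 4 libraries (KO_2907, KO_2908, KO_2909 and KO_2910) from mice of the genotype Satb1fl/fl x CD4-CreERT2wt/+ that were given tamoxifen. The WT group is 4 libraries (WT_2911, WT_2913, WT_2914 and WT_2915) from mice that carried the same alleles and were left untreated, so both groups carry the floxed Satb1 alleles and the CreERT2 transgene, whose expression is driven by CD4 sequences. Tamoxifen lets the Cre recombinase enter the nucleus, so tamoxifen, active Cre and the intended loss of Satb1 coincide in KO and cannot be told apart. No age, tamoxifen dose or time is given in the sources used here, nor whether each library is 1 animal, so each p reflects how far these libraries spread, which may be technical.

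p53 is held at a low level in unstressed cells by MDM2, a ubiquitin ligase that is itself a p53 target. When the kinases ATM and ATR sense broken or stalled DNA they act directly and through CHK2 and CHK1, p53 accumulates, and its target genes slow the cell cycle, aid repair or favour cell death. Resting naive T cells divide rarely, and genes used mainly during DNA replication are low in them. Cre recombinase cuts and rejoins DNA at loxP sites, and the question here is whether transcripts of the damage response differ in a comparison in which Cre was made active in 1 group.

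Of the 31 genes, 28 had enough reads to be tested and 27 of these 28 were not called different between KO and WT (edgeR quasi-likelihood test, Benjamini-Hochberg adjusted p under 0.05 over all 11772 genes tested). The exception was Gen1, which encodes a nuclease that resolves Holliday junctions, and which fell in KO to 0.490 times its WT level. No gene of the group was called higher. The share called was 3.57%, against 6.39% of all genes tested. The median log2 fold change was 0.010, against -0.00047 over all genes tested, with 16 of the 28 values above 0 and 12 below. At an unadjusted p under 0.05 there were 5 genes (17.9%, against 18.0% of all genes tested), namely Gen1, Sesn1, Sesn3, Ddb2 and Rev3l. KO and WT libraries did not overlap in 2 of the 28, Gen1 and Sesn1, against 11.1% of all genes tested. In bulk RNA, fewer cells of a type and less RNA per cell cannot be told apart.

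**Figure D1:**
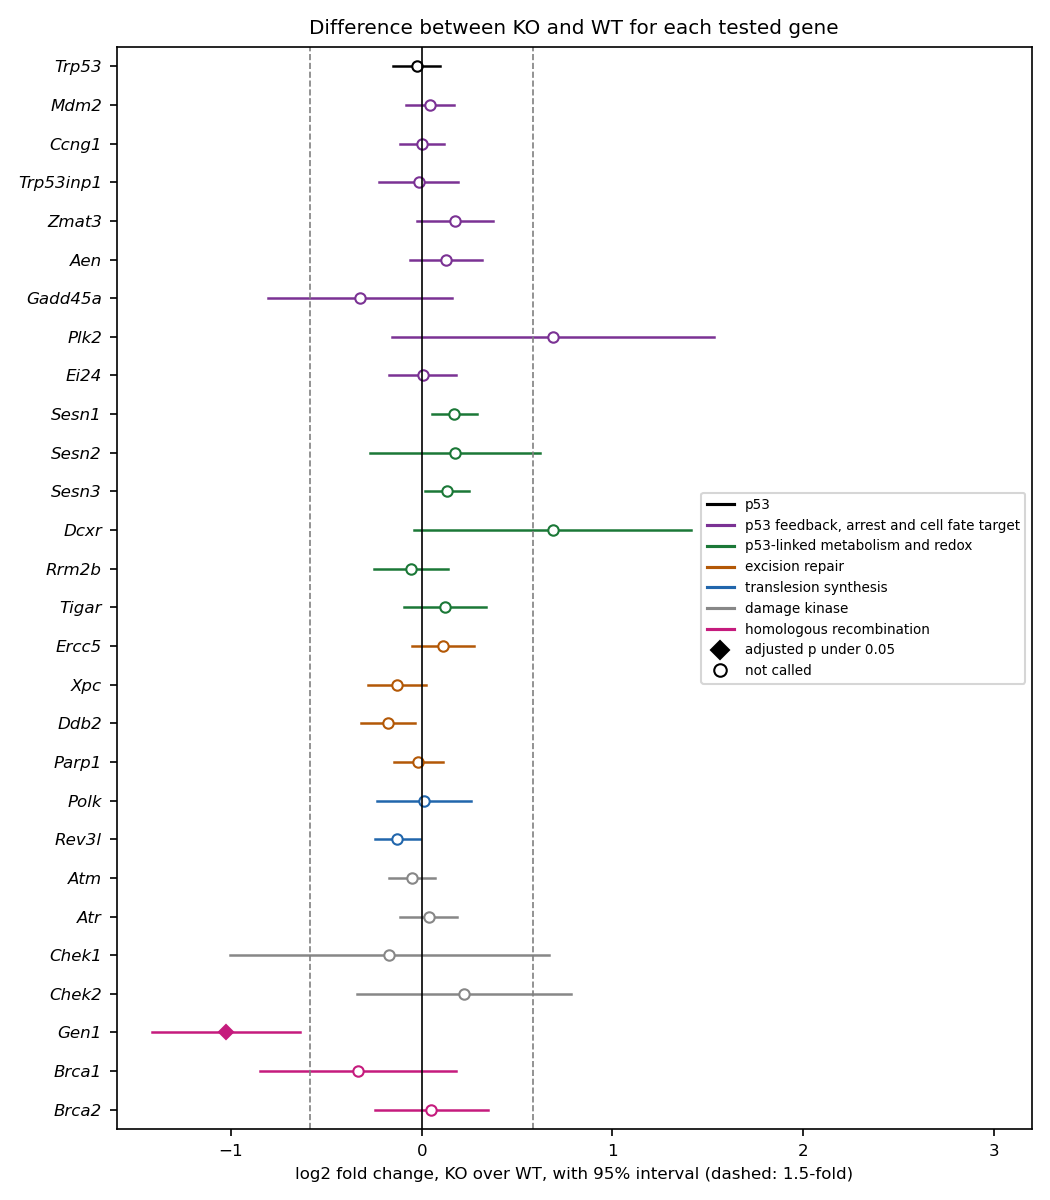
Log2 fold change of KO over WT for the 28 tested genes, with the 95% interval of each, coloured by role, with dashed lines at a 1.5-fold change. Gen1, the filled diamond at -1.03, is the gene past the threshold, and 20 of the 28 intervals lie inside the dashed lines.

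For 20 of the 28 tested genes the 95% interval lay within 1.5-fold in either direction, and for 17 it lay within 1.25-fold. The 8 genes whose interval reached beyond 1.5-fold were Gen1 and the low genes Sesn2, Gadd45a, Plk2, Dcxr, Chek1, Chek2 and Brca1. Among the 19 tested genes averaging 20 CPM or more (reads scaled to library size with TMM factors), log2 fold changes ran from -0.18 to 0.17. Among the 9 lower ones they ran from -1.03 to 0.69.

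p53 binds DNA as a tetramer at a pair of decamers, called half-sites, and these were looked for in the promoter windows of the group because they are the letters that tie several of these genes to p53. RefSeq windows (GRCm38.p6, 250 bases before to 50 after an annotated start) were at hand for 25 of the 31 genes. An exact match to the p53 half-site consensus stood in a window of 10 of these 25 genes, against 9.55% of all 27025 genes with a window. A full site, meaning a pair of exact half-sites up to 13 bases apart, stood in Cdkn1a, and in 0.074% of all genes. The consensus reads the same on both strands. The sequences below are on the strand of the gene, with the half-sites in capitals and flanking or spacer bases in lower case.
Cdkn1a (chr17:29090906-29090937, plus strand, beginning 73 bases before a start): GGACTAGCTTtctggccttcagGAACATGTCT
Mdm2 (chr10:117710925-117710954, minus strand): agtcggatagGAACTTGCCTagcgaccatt
Ccng1 (chr11:40755452-40755481, minus strand): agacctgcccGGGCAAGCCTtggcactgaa
Ei24 (chr9:36797325-36797354, minus strand): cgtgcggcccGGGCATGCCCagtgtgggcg
Aen (chr7:78895927-78895956, plus strand): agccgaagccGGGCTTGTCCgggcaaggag
Sesn1 (chr10:41887256-41887285, plus strand): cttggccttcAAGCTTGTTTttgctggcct
Trp53 (chr11:69580274-69580303, plus strand): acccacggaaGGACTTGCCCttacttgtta
The other 3 genes with a match were Gadd45a, Polk and Ckap2. The Sesn1 match begins 173 bases before a start inside the gene, whose annotated span begins at 41809935. Polk also has its match before an inner start, at chr13:96519409-96519418, while its span on the minus strand begins at 96542579. Gen1 had none in its window. These matches describe letters and do not show binding.

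Trp53 itself (chr11:69580359-69591873, plus strand) was not called different. It stood at 211.6, 190.0, 179.2 and 200.9 CPM in KO_2907 to KO_2910, and at 190.7, 208.5, 187.6 and 209.8 CPM in WT_2911, WT_2913, WT_2914 and WT_2915, the order kept below. The groups overlapped fully, with a log2 fold change of -0.027 (95% interval -0.15 to 0.10, edgeR adjusted p = 0.877). p53 is regulated mainly as a protein, which these libraries do not measure.

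Mdm2 (chr10:117688875-117710758, minus strand), the feedback inhibitor of p53, had 128.6, 122.9, 110.0 and 125.3 CPM in KO and 117.7, 117.3, 120.3 and 116.0 CPM in WT. KO libraries lay on both sides of the narrow WT range, and the log2 fold change was 0.045 (95% interval -0.082 to 0.17, edgeR adjusted p = 0.779). Ccng1, the cyclin G1 gene and one of the most widely induced p53 targets, averaged 180.6 ± 8.42 CPM in KO against 180.6 ± 5.54 CPM in WT (SD, n = 4 each). Its 95% interval, -0.11 to 0.12 on the log2 scale, was among the narrowest of the group. Ei24, which encodes a membrane protein of the endoplasmic reticulum induced by p53, likewise stood at 44.8 ± 2.79 CPM in KO against 44.7 ± 3.34 CPM in WT.

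Cdkn1a, which encodes the cell cycle inhibitor p21 and carries the full site shown above, was almost silent in both groups. It had 0, 2, 4 and 3 reads in KO and 2, 0, 3 and 2 reads in WT. Pooled, that is 9 reads in KO against 7 in WT, a ratio of levels of 1.69 with an exact 95% counting interval of 0.56 to 5.34. The groups overlapped (exact 2-sided permutation test over the 70 relabellings, p = 0.457, where 0.0286 is the smallest possible). At this depth a difference smaller than several-fold was not detectable.

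Phlda3, an inhibitor of AKT signalling, and Ckap2, a spindle protein gene, were also too low to test. Phlda3 had 26 pooled reads in KO and 24 in WT (ratio 1.42, 95% counting interval 0.79 to 2.59; exact permutation p = 0.771), and Ckap2 had 15 in each (ratio 1.31, 0.60 to 2.88; exact permutation p = 0.286). These intervals cover counting error only.

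Trp53inp1, which encodes a stress protein that promotes p53 activity and autophagy, was the highest per length among the p53 targets of this gene group. It stood at 58.6 CPM per kilobase of exon in KO and 59.2 in WT, followed by Ccng1 at 51.4 in each group. Its libraries were 407.3, 442.2, 305.8 and 362.6 CPM in KO, against 371.7, 385.0, 402.8 and 374.6 CPM in WT. The KO libraries spread far more widely than the WT libraries, with a coefficient of variation of 15.5% in KO and 3.67% in WT, around nearly equal means (log2 fold change -0.016, 95% interval -0.22 to 0.19). KO_2909 was the lowest of the KO group for this gene, as it was for 14 of the 28 tested genes.

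Zmat3, an RNA-binding regulator of splicing, and Aen, a nuclease that favours apoptosis, had small positive differences that did not pass. Zmat3 stood at 34.6 ± 2.97 CPM in KO against 30.9 ± 2.19 CPM in WT, for a log2 fold change of 0.17 (by edgeR, adjusted p = 0.362). Aen stood at 42.6 ± 2.80 CPM in KO against 39.5 ± 4.11 CPM in WT, for a log2 fold change of 0.13 (by edgeR, adjusted p = 0.514). In both genes KO and WT libraries overlapped.

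Gadd45a and Plk2 respond to several kinds of stress besides p53, the first encoding a small stress sensor and the second a kinase of the Polo family. Gadd45a had 3.42, 5.04, 7.997 and 6.16 CPM in KO, against 5.21, 8.11, 8.91 and 5.63 CPM in WT. It overlaps a non-coding gene on the other strand, E230016M11Rik, whose reads may not be separable from its own. Plk2 had 1.59, 1.21, 1.62 and 1.34 CPM in KO, against 1.35, 0.721, 0.847 and 0.779 CPM in WT. Its 3 lower WT libraries lay below all KO libraries, but the log2 fold change of 0.69 had an interval of -0.15 to 1.53 (edgeR adjusted p = 0.407).

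**Figure D2:**
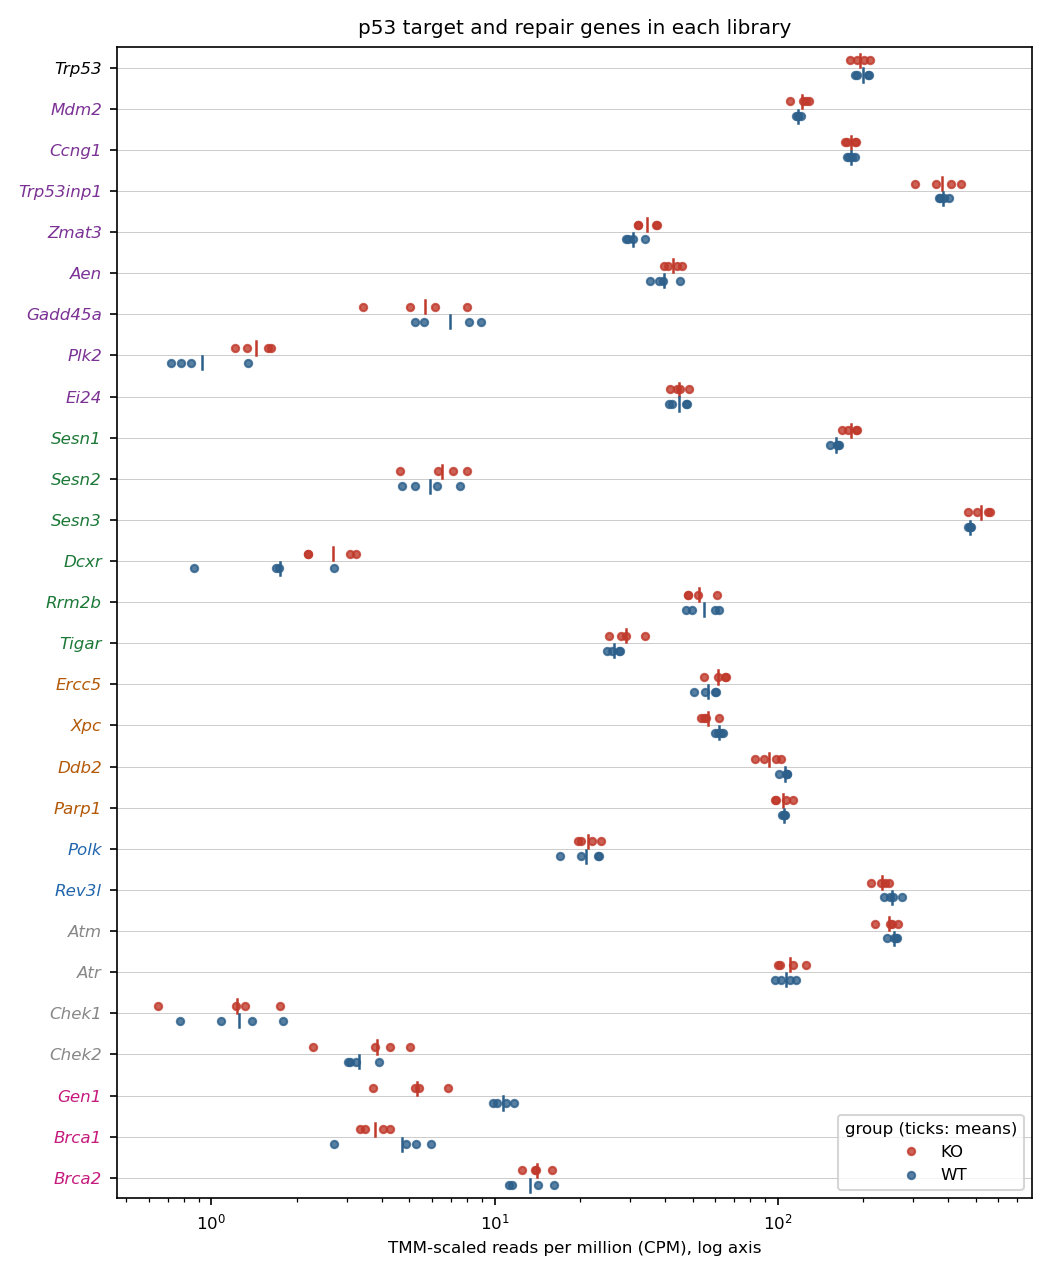
CPM on a log axis for the 28 tested genes, with KO points above WT points in each row and a tick at each group mean, gene names coloured by role as in the plot of fold changes. KO and WT points intermix in most rows, while the KO points of Gen1 all lie left of its WT points and those of Sesn1 all lie right.

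The sestrins, which are induced by stress and restrain the growth kinase complex mTORC1, had positive log2 fold changes that did not pass the threshold. Sesn1 (chr10:41809935-41908424, plus strand) had 188.7, 176.8, 168.0 and 190.2 CPM in KO, against 162.7, 153.2, 163.9 and 161.7 CPM in WT. It was the only tested gene of the group, besides Gen1, whose libraries did not overlap, and the only one with KO above WT, a pattern seen in 6.23% of all genes tested. The log2 fold change was 0.17 (95% interval 0.054 to 0.29), which missed the threshold (edgeR adjusted p = 0.0764) and passed it with limma-voom and sample weights together (0.19, adjusted p = 0.0401).

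Sesn3, which is also a target of FOXO factors, had 550.9, 562.8, 469.4 and 505.7 CPM in KO, against 477.7, 481.8, 477.3 and 468.1 CPM in WT. Only KO_2909 fell within the WT range, and the log2 fold change was 0.13 (95% interval 0.018 to 0.25, edgeR adjusted p = 0.188). Sesn2, at 6.51 ± 1.43 CPM in KO against 5.93 ± 1.24 CPM in WT, had a log2 fold change of 0.18 with a wide interval of -0.27 to 0.62. Per kilobase of exon, Sesn1 stood at 45.4 CPM in KO and 40.3 in WT, Sesn3 at 34.2 in KO and 31.2 in WT, and Sesn2 at 1.87 in KO and 1.71 in WT. Sesn1 and Sesn3 were thus the main sestrins in these cells in both groups.

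Whether several genes passed with edgeR depended on KO_2909. When it was left out, Sesn1 (log2 fold change 0.20, edgeR adjusted p = 0.0329), Sesn3 (0.18, adjusted p = 0.0474) and Ddb2 (-0.23, adjusted p = 0.0499) passed beside Gen1, giving 4 called genes, 2 higher and 2 lower. Summed over all 31 genes, KO_2909 held 2532 CPM and the other KO libraries 2829, 2916 and 2752 CPM, while WT libraries held 2695 to 2782 CPM.

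Of the other p53-linked metabolic genes, Tigar lowers glycolytic flux, Rrm2b encodes a subunit of ribonucleotide reductase used outside S phase, and Dcxr encodes a carbonyl reductase. Tigar stood at 29.1 ± 3.55 CPM in KO against 26.5 ± 1.27 CPM in WT, and Rrm2b at 52.5 ± 6.11 CPM in KO against 54.7 ± 7.26 CPM in WT. Dcxr had 2.20, 2.19, 3.24 and 3.08 CPM in KO, against 1.74, 2.70, 1.69 and 0.866 CPM in WT. The Dcxr groups overlapped, and the log2 fold change of 0.69 (95% interval -0.039 to 1.41) did not pass (edgeR adjusted p = 0.310). Neither did Tigar (0.12, adjusted p = 0.603) or Rrm2b (-0.056, adjusted p = 0.824).

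Among the damage kinases, Atm and Atr were well expressed and were not called different, while the checkpoint kinases downstream of them were low. Atm stood at 247.5 ± 19.7 CPM in KO against 256.3 ± 9.76 CPM in WT (log2 fold change -0.052, 95% interval -0.17 to 0.067). Atr stood at 110.1 ± 11.8 CPM in KO against 106.6 ± 8.15 CPM in WT (0.038, 95% interval -0.11 to 0.19). Per kilobase of exon, Atm was at 23.9 CPM in KO and 24.8 in WT, whereas Chek1 was at 0.27 in both groups. Chek1 had 1.221, 1.32, 0.648 and 1.74 CPM in KO, against 0.772, 1.08, 1.78 and 1.38 CPM in WT. Chek2 stood at 3.84 ± 1.17 CPM in KO against 3.31 ± 0.397 CPM in WT. Both checkpoint kinase genes overlapped between the groups, and their intervals, -1.01 to 0.67 for Chek1 and -0.34 to 0.78 for Chek2, left room for differences above 1.5-fold.

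The 4 excision repair genes of the group had log2 fold changes of both signs and 0 were called. At an unadjusted p under 0.05 there was 1, against 18.0% of all genes tested. Ddb2 (chr2:91211572-91236982, minus strand), whose product finds ultraviolet damage and hands it to the XPC complex, had 82.9, 98.3, 102.6 and 89.5 CPM in KO, against 107.3, 107.1, 107.6 and 100.6 CPM in WT. Only KO_2909 reached into the WT range, and the log2 fold change was -0.18 (95% interval -0.32 to -0.036, edgeR adjusted p = 0.142). Ddb2 overlaps Acp2 on the other strand, an acid phosphatase gene with a log2 fold change of -0.21 (adjusted p = 0.386), and reads from the overlap may not be separable. Xpc, the damage sensor itself, stood at 56.6 ± 3.82 CPM in KO against 61.9 ± 1.71 CPM in WT (-0.13, adjusted p = 0.377).

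Ercc5, the nuclease that cuts on the 3′ side of a lesion, stood at 61.7 ± 4.81 CPM in KO against 56.5 ± 4.72 CPM in WT (log2 fold change 0.11, edgeR adjusted p = 0.516). Parp1, which binds strand breaks and builds poly(ADP-ribose), stood at 103.9 ± 7.31 CPM in KO against 105.1 ± 1.13 CPM in WT (-0.017, adjusted p = 0.935). The Parp1 interval of -0.15 to 0.11 lay within 1.25-fold.

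Both translesion genes encode parts of polymerases that copy past damaged bases. Rev3l, the catalytic subunit of polymerase zeta, had 230.7, 239.4, 213.5 and 246.4 CPM in KO, against 255.0, 237.5, 273.4 and 248.5 CPM in WT. Its groups overlapped, with a log2 fold change of -0.13 (95% interval -0.25 to -0.0093, edgeR adjusted p = 0.226). Polk, polymerase kappa, stood at 21.4 ± 1.93 CPM in KO against 20.9 ± 3.02 CPM in WT.

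Gen1 (ENSMUSG00000051235.10, chr12:11238920-11265801, minus strand) was the gene of the group that was called different. It had 5.25, 3.73, 5.40 and 6.83 CPM in KO, from 43, 34, 50 and 51 reads, against 9.84, 10.99, 11.7 and 10.2 CPM in WT, from 51, 61, 262 and 118 reads. Every KO library lay below every WT library, as in 4.86% of all genes tested. The log2 fold change was -1.03 (SE 0.190, 95% interval -1.42 to -0.64, edgeR adjusted p = 0.000474). Gen1 kept its call in each of the 18 alternatives tried, with log2 fold changes of -1.17 to -0.88. Per kilobase of exon it was a low gene, at 0.68 CPM in KO and 1.38 in WT.

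Gen1 shares its start region with Smc6, which encodes a subunit of the SMC5/6 complex of recombination repair and is transcribed in the opposite direction. RefSeq places the start of Gen1 at 11265807 and that of Smc6 at 11265886 on chromosome 12, and the 78 bases between them (chr12:11265808-11265885, GRCm38.p6, plus strand) are shown because they lie before both genes.
Gen1 and Smc6: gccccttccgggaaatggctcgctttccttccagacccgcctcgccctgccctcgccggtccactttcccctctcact
The stretch is 66.7% G or C with 6 CpG dinucleotides. It holds no whole p53 half-site, GC box (GGGCGG) or CCAAT box on either strand. Nor does it hold a whole cell cycle homology element (TTTGAA, or in its other spelling TTCGAA), hence no capitals. A GC box at chr12:11265806-11265811 runs across the start of Gen1 and lies only partly in the stretch. In the full 300-base window of Gen1 the GC box (38.2% of all genes have it in a window) and the element TTCGAA (1.802% of all genes) occur.

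Smc6 (chr12:11265886-11319785, plus strand) had nearly equal group means. It had 261.3, 299.0, 248.6 and 277.5 CPM in KO, against 260.7, 275.0, 286.0 and 260.3 CPM in WT, with a log2 fold change of 0.0044 (95% interval -0.12 to 0.12, edgeR adjusted p = 0.982). The annotated spans of the genes do not overlap.

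**Figure D3:**
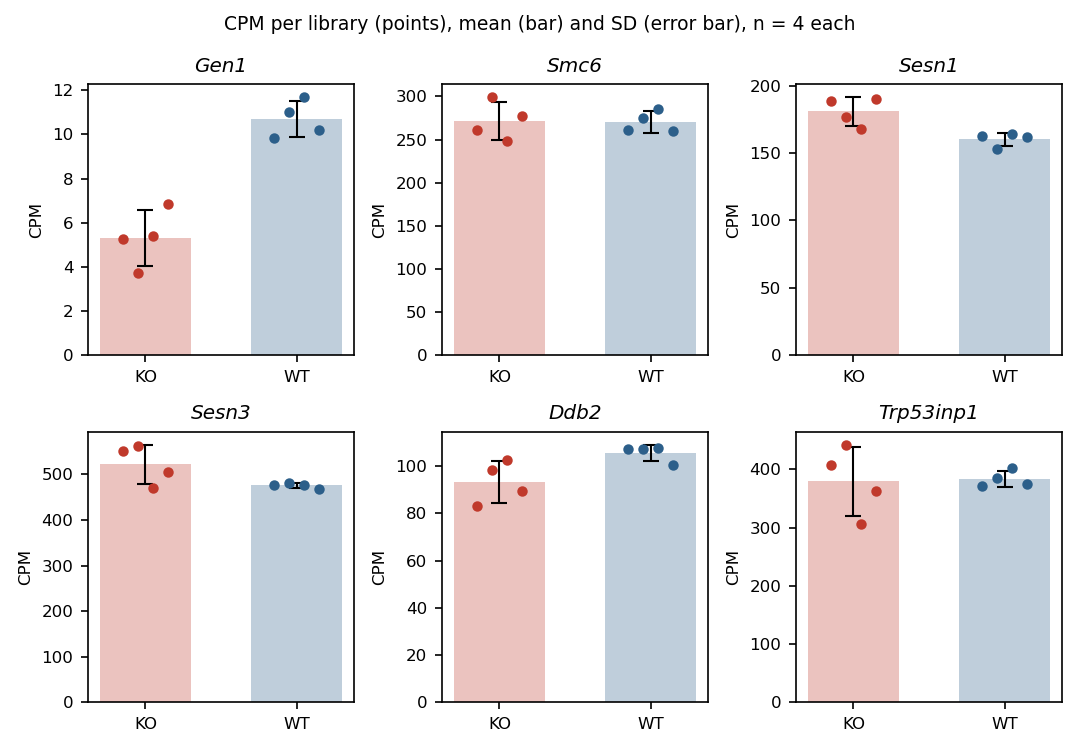
CPM per library (points), group mean (bar) and SD (error bar, n = 4 each) for Gen1, its divergent neighbour Smc6, and 4 further genes, on axes that start at 0. Gen1 is lower in every KO library, Smc6 has nearly equal group means, and the KO points of Trp53inp1 and Sesn3 spread more widely than the WT points.

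Brca1 and Brca2, which act in homologous recombination at broken DNA, were low. Brca1 had 4.03, 4.28, 3.35 and 3.48 CPM in KO, against 2.70, 5.95, 5.26 and 4.85 CPM in WT. WT_2911 lay below all KO libraries and the other 3 WT libraries above them, and the log2 fold change was -0.33 (95% interval -0.85 to 0.18, edgeR adjusted p = 0.536). Brca2 stood at 14.1 ± 1.41 CPM in KO against 13.3 ± 2.36 CPM in WT (0.051, adjusted p = 0.909).

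Brca1, Brca2, Chek1 and Ckap2 are genes of dividing cells, so 20 markers of cycling cells were set beside them. The summed level of these markers was 471.7 to 504.9 CPM in KO and 427.7 to 454.1 CPM in WT, without overlap, and all 20 had reads. Log2 fold changes were above 0 in 10 and below 0 in 6 of the 16 tested (median 0.090). KO libraries lay above all WT libraries in 3 genes and below them in 1, against 6.23% and 4.86% of all genes tested. Of the 16 tested, 1 was higher (Tk1, thymidine kinase, log2 fold change 0.73, edgeR adjusted p = 0.0201) and 1 was lower (Ccna2, cyclin A2, -1.87, adjusted p = 0.0187). The Tk1 call was lost without any of KO_2907, KO_2909, KO_2910, WT_2913, WT_2914 and WT_2915 (adjusted p up to 0.0780), and the Ccna2 call without KO_2908, KO_2910 or WT_2913 (up to 0.0871). Without WT_2914 or WT_2915, Ccna2 fell below the count filter and was not tested. Their part in the values of the 4 genes was not tested.

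The rest of the pathways was read from 8 further lists of p53 and repair genes, 152 in all, of which 139 were tested. Of these, 5 were higher and 4 lower in KO (3.98% and 2.41% of all genes tested were), with a median log2 fold change of -0.0044. In the list of other p53 pathway genes, 3 of 34 tested were higher and 0 lower (median 0.040). They were Ccnd2, the cyclin D2 gene, at 856.9 ± 58.7 CPM in KO against 574.2 ± 32.4 CPM in WT (log2 fold change 0.58, edgeR adjusted p = 1.58e-08), Pml, the scaffold of nuclear bodies (0.32, adjusted p = 0.00178), and Apaf1, the core of the apoptosome (0.32, adjusted p = 0.0179). The Apaf1 call was lost without KO_2908 (adjusted p = 0.0750) or WT_2913 (0.0863). Of the 34, 9 reached an unadjusted p under 0.05, against 18.0% of all genes tested. KO libraries lay above all WT libraries in 5 of the 34 and below them in 2, against 6.23% and 4.86% of all genes tested. Ddit4 was 1 of the 5 and was not called (log2 fold change 0.52, edgeR adjusted p = 0.0785). In this list 1 gene was called lower without KO_2909, 1 without WT_2914 and 1 with libraries thinned to 5227758 reads.

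The p53-linked cell death genes of that list were picked for mention after their values were seen, and apart from Apaf1 those named here were not called. Bbc3, known as PUMA, had 21.01, 14.1, 16.5 and 15.7 CPM in KO, against 11.97, 11.5, 13.3 and 13.2 CPM in WT. All KO libraries lay above all WT libraries, as in 6.23% of all genes tested. The log2 difference of Bbc3 was 0.41 (edgeR adjusted p = 0.0818, and 0.0393 without KO_2908). Tnfrsf10b, the TRAIL receptor gene, had 10.01, 10.2, 8.65 and 12.99 CPM in KO, against 8.11, 9.37, 5.93 and 8.48 CPM in WT. The groups overlapped, for a log2 difference of 0.43 (95% interval 0.047 to 0.80, unadjusted p = 0.0288, edgeR adjusted p = 0.201). Pmaip1, known as NOXA, was too low to test, with 18, 8, 13 and 5 reads in KO against 8, 3, 6 and 7 reads in WT. Its pooled ratio was 2.41 (95% counting interval 1.43 to 4.14), but the libraries overlapped (exact permutation p = 0.257). Tnfrsf1a, a TNF receptor gene, went the other way, with 43.97, 46.4, 46.9 and 46.7 CPM in KO, against 53.1, 57.5, 53.5 and 52.2 CPM in WT. All its KO libraries lay below all WT libraries, as in 4.86% of all genes tested. The log2 difference of Tnfrsf1a was -0.23 (edgeR adjusted p = 0.0806). The log2 differences of the others were 0.28 for Cycs, 0.13 for Bid, 0.10 for Casp9, 0.054 for Bax, -0.078 for Pidd1 and -0.16 for Fas, with edgeR adjusted p of 0.377 or more.

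Among repair lists the called genes were few and went both ways. Of 18 genes of break signalling and end joining, 1 was lower, Xrcc4, a partner of DNA ligase IV (log2 fold change -0.58, edgeR adjusted p = 0.0208). Of 29 tested genes of recombination and crosslink repair, 2 were lower, the nuclease gene Fan1 (-0.58, adjusted p = 0.00358) and Fanci of the Fanconi anaemia pathway (-0.49, adjusted p = 0.0394). The Xrcc4 call was lost without KO_2907, KO_2909, WT_2911 or WT_2913 (adjusted p up to 0.0933). The Fanci call was lost without KO_2907, KO_2909, KO_2910, WT_2913 or WT_2914 (up to 0.177), and in 9 of the 18 alternatives in all. Fan1 had 14.7, 17.3, 11.9 and 14.7 CPM in KO, against 22.8, 19.5, 21.7 and 23.4 CPM in WT. Like Gen1, Fan1 and Fanci separated the groups in every library, while Xrcc4 did not. Among the 29 genes of recombination and crosslink repair, KO libraries lay below all WT libraries in 3 and above them in 0. The shares over all genes tested were 4.86% and 6.23%.

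Of 18 tested base excision genes, 1 was higher, Lig1, DNA ligase I (log2 fold change 0.41, edgeR adjusted p = 0.0370). The call was lost without any of KO_2907, KO_2909, KO_2910, WT_2911, WT_2913 and WT_2914 (adjusted p up to 0.134). Of 10 tested checkpoint genes, Cdc25b, a phosphatase that opens the way to mitosis, was higher (80.6 ± 3.46 CPM in KO against 50.7 ± 5.41 CPM in WT, 0.66, adjusted p = 5.59e-07). Timeless, a replication fork protein gene, was lower (55.7 ± 5.85 CPM in KO against 71.3 ± 2.71 CPM in WT, -0.36, adjusted p = 0.00284). No gene was called among 16 of nucleotide excision (lowest adjusted p 0.0785, Uvssa, -0.20; 3 genes at an unadjusted p under 0.05), 7 of mismatch repair (0.0912, Mlh3, -0.25; 2 genes) or 7 of translesion synthesis (0.417, Poli, -0.14; 0 genes). An unadjusted p under 0.05 was reached by 18.0% of all genes tested. All 7 mismatch repair values were below 0, with a median of -0.15, while 5898 of all 11772 genes tested were below 0. The summed level of the 7 was 357.0 to 380.7 CPM in KO and 385.7 to 405.4 CPM in WT, without overlap. Singly, KO libraries lay below all WT libraries in 1 of the 7, against 4.86% of all genes tested. With DESeq2 each of these 3 lists had 0 called. Uvssa passed with edgeR without KO_2908 (-0.23, adjusted p = 0.0280) and with library size scaling (-0.21, adjusted p = 0.0486). Mlh3 passed without WT_2913 (-0.32, adjusted p = 0.0356) and with libraries thinned to 5227758 reads (-0.33, adjusted p = 0.0385).

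**Figure D4:**
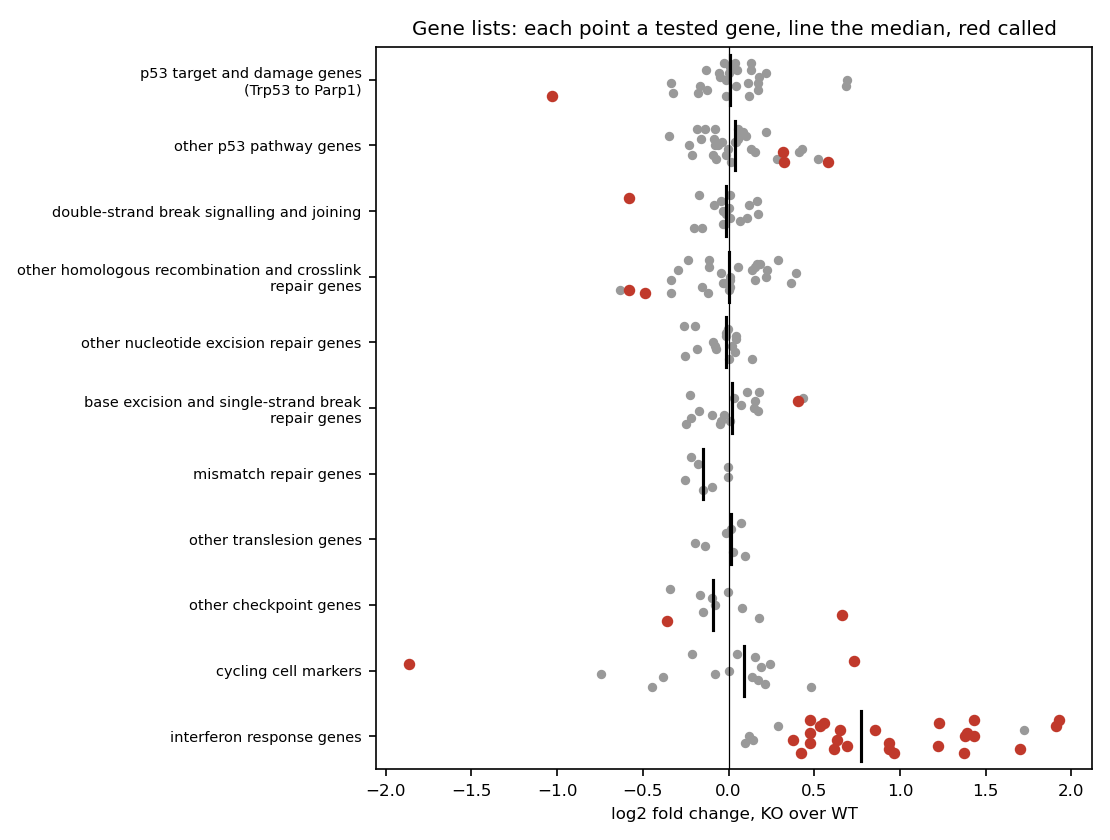
Log2 fold change of KO over WT for every tested gene of the group (top row) and of 10 further lists, with a line at each median and called genes in red. The medians of the other p53 and repair lists run from -0.15 for mismatch repair to 0.040, with isolated called genes, while the interferon response genes lie to the right with a median of 0.77.

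KO libraries held 7544075 to 9253620 reads and WT libraries 5227758 to 21998174, and reads of mitochondrial genes made up 1.42% to 1.72% of KO libraries and 1.78% to 2.01% of WT libraries. Satb1, the targeted gene, was at 909.9 ± 87.2 CPM in KO against 1033 ± 41.4 CPM in WT (log2 fold change -0.18, edgeR adjusted p = 0.0582), and it passed the threshold without KO_2908 (-0.25, adjusted p = 0.00152). KO is used here as the label of the group and not as a measured loss. Of 30 interferon response genes, led by Ifi27l2a (0.97), Rtp4 (0.93) and Oasl2 (1.39), 25 were higher and 0 lower, and their summed level was 2932 to 3445 CPM in KO and 1996 to 2324 CPM in WT. Pml is itself known to be induced by interferon. Immediate early and handling stress genes had 4 higher and 0 lower of 30 tested, led by Cd69, Klf6 and Rgs1 (summed 3426 to 4174 CPM in KO and 3370 to 3945 CPM in WT), and stress genes of the ATF4 pathway, of which Sesn2 is one, had 1 higher, Atf4, and 0 lower of 9 (summed 493.6 to 610.5 CPM in KO and 404.8 to 464.0 CPM in WT). The part of these, and of the mitochondrial share, in the values above was not tested.

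The markers of the sorted cells were high in both groups. All 10 defining genes of naive CD4 T cells were tested, with 2 higher and 3 lower, among them Tcf7 (log2 fold change -0.29) and Ccr7 (-0.19, lost without KO_2907, WT_2913 or WT_2915), and summed to 7633 to 8335 CPM in KO and 7662 to 8072 CPM in WT. Myeloid and dendritic markers summed to 93.8 to 107.7 CPM in KO and 59.5 to 105.0 CPM in WT, with 1 higher (Bst2, also an interferon response gene) and 0 lower of 4 tested and S100a8 and S100a9 at 0 reads. CD8 and cytotoxic markers summed to 49.9 to 56.0 CPM in KO and 59.1 to 64.1 CPM in WT (0 called of 2 tested), NK markers to 22.6 to 27.8 CPM in KO and 27.6 to 34.0 CPM in WT (1 lower, Klrd1, of 3, lost without WT_2915), and B cell markers to 359.8 to 415.1 CPM in KO and 446.0 to 485.2 CPM in WT (1 lower, Ighm, of 4).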

How the data were processed

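Per the labels' protocols, poly(A) libraries were made with a kit that does not mark strand and read as single 75-base reads. The submitters' processing notes name mm10 as build and list DESeq2 1.22.2, R 3.5.3, FastQC and CASAVA 1.8.2, with no role stated. For the aligner, counter, annotation release and strand setting the sources used here give nothing. The authors deposited whole-number read counts for 53465 gene IDs and a normalized signal table of 16418 genes, whose values are the count scaled by 1 factor per library. Gene types, positions and exon lengths came from GENCODE M21 (GRCm38), which matched 99.6% of IDs.

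In R 4.3.3, edgeR 4.0.16 fitted the counts, KO against WT, and its quasi-likelihood F test was run in robust mode with TMM scaling and filterByExpr, over 11772 genes, and called at a Benjamini-Hochberg adjusted p under 0.05. Levels are TMM-scaled CPM (mean ± SD, n = 4). Standard errors are the log2 fold change over the root of F, and 95% intervals use the t quantile of the fit. Genes too low to test have pooled reads with exact counting intervals and exact permutation tests. The test was checked on simulated data. Library numbers in a group are the labels' own, and all pairs within a group differed beyond sampling noise. Alternatives were DESeq2 1.42.0, limma 3.58.1 (voom with sample weights, and trend), other scalings and filters, and leaving out each library.

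The members and lists were chosen with earlier results of these data known. The genes named are all members, every called gene of the other p53 and repair lists or, where a list had none, the gene of lowest adjusted p, up to 3 called genes of each marker list, Satb1, and genes overlapping or starting within 1000 bases of a called member. Outside that rule, and after their values were seen, the text names p53-linked death genes (Bbc3 and the others beside it), Ddit4, S100a8, S100a9, Acp2 and E230016M11Rik. Results for some items are not reported here.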

Additional observations from a re-analysis of the deposited data

Results flagged for a closer look

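In each group of 4 libraries, the gap between an extreme library and its nearest neighbour was divided by the group's range, and 3 of 84 groups exceeded Dixon's 95% critical value, where chance alone flags about 1 in 20. Ddb2 in WT had WT_2915 at 100.6 CPM, below the other WT libraries at 107.1 to 107.6 CPM. Lig1 in KO had KO_2909 at 25.5 CPM, above the other KO libraries at 22.5 to 22.8 CPM. Timeless in KO had KO_2907 at 47.0 CPM, below the other KO libraries at 57.9 to 59.7 CPM. Ddb2 is not called with all 8 libraries, and Timeless kept its call in each of the 18 alternatives.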

How the results depend on the processing

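No paired analysis was possible because the library numbers of KO and WT are not shared. Gen1 was called lower in each of the 18 alternatives. The number of the 28 genes called was 2 (1 higher) with limma-voom and sample weights and 4 (2 higher, 2 lower) without KO_2909, and ran from 1 to 4 (0 to 2 higher, 1 to 2 lower) over libraries left out. Over all genes the count of 752 was 481 (158 lower) without WT_2911 and WT_2914 together, a pair chosen after seeing the data, and ran from 562 to 836 over single libraries left out (191 to 336 lower). Satb1 passed with limma-voom and sample weights (-0.19), library size scaling (-0.20), no count filter (-0.19), limma-trend on the deposited values (-0.19) and libraries thinned to 5227758 reads (-0.20, also chosen after seeing the data), and ran from -0.25 to -0.15 over libraries left out.

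Differences near 0, none called, changed sign. With library size scaling these were Ccng1 (-0.012), Ei24 (-0.0097), Polk (-0.0039) and Smc6 (-0.010). With limma-trend it was Ccng1 (-0.00099). After thinning they were Ei24 (-0.010), Parp1 (0.0085) and Smc6 (-0.023). Without WT_2911 and WT_2914 they were Ei24 (-0.085), Polk (-0.0092), Brca2 (-0.0088) and Bax (-0.033). Over libraries left out, the ranges were -0.068 to 0.010 for Trp53, -0.018 to 0.023 for Ccng1, -0.099 to 0.072 for Trp53inp1, -0.035 to 0.041 for Ei24, -0.059 to 0.082 for Polk, -0.14 to 0.013 for Rrm2b, -0.034 to 0.084 for Atr, -0.36 to 0.099 for Chek1, -0.015 to 0.16 for Brca2, -0.063 to 0.012 for Parp1, -0.16 to 0.036 for Pidd1 and -0.046 to 0.042 for Smc6. The cause was not tested. With no count filter, Cdkn1a (0.64), Phlda3 (0.33) and Ckap2 (0.71) could be fitted and none was called.

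Depth limits the low genes most: Chek1, Plk2, Dcxr and Cdkn1a rest on few reads per library. Without WT_2911 and WT_2914 together, calls were lost for Fan1, Xrcc4, Fanci, Lig1, Tk1, Ccna2 and Atf4 (edgeR adjusted p 0.0508 for Ccna2 to 0.146 for Lig1). Fanci also lost its call with the non-robust fit (0.0515), limma-trend (0.0505) and thinning (0.0599), and Lig1 with thinning (0.150). Ccna2 was not tested after thinning. Whether the libraries are separate animals, and what tamoxifen alone does, cannot be told from these data.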
